A study of Mus musculus with 2 samples.

Results

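The 8 transcription factors described here are the genes by which the layers of the cerebral cortex are usually told apart. They are Cux1, Cux2 and Rorb for the upper layers and Tbr1, Fezf2, Tle4, Bcl11b and Foxp2 for the deep layers, 8 of 21911 protein-coding genes measured, and they were chosen by name. Cortical projection neurons are born in order, the deep layers first, and these factors fix which layer a neuron joins and where its axon goes. Cux1 and Cux2 are homeodomain proteins of callosal neurons, and Rorb is a nuclear receptor of the layer that receives thalamic input. Among the deep factors, Fezf2 and Bcl11b (Ctip2) direct corticospinal neurons, Tbr1 directs corticothalamic neurons and holds Fezf2 in check, and Tle4 and Foxp2 mark corticothalamic neurons. Several of them also act outside the cortex, and Bcl11b and Foxp2 are well known in the spiny projection neurons (SPN) of the striatum.

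Chromatin accessibility was measured by scATAC-seq in nuclei of C57BL/6J male mice of 8 to 12 weeks, with no genetic change in either group. The stroke library came from ipsilateral hemispheres 48 h after an occlusion of the middle cerebral artery of 1 h followed by reperfusion, and the sham library came from whole brains 48 h after the sham operation, olfactory bulbs and cerebellum being left out of both. Each library pooled 4 brains and stood alone for its condition, so no test between animals was possible, and hemisphere sampled, library and stroke cannot be told apart in any difference between them. Values are fragments over the gene body plus 2 kb upstream per 1000000 fragments (CPM) in called barcodes with over 20% of fragments in peaks. The filter kept 6817 of 6979 sham barcodes (97.7%) and 5054 of 8740 stroke barcodes (57.8%), with a median of 10356 and 9898 fragments per nucleus, and 42 kept barcode sequences occurred in both libraries. All intervals are exact 95% intervals that cover counting error only.

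Nuclei were assigned to 10 classes by marker lists that hold none of the 8 factors. For each nucleus and list, a score z of 2 times the difference between the square roots of the observed and the expected fragments had to reach 2 and to exceed the next class by 1. This marker z gate took 374 sham and 202 stroke nuclei as glutamatergic, or 5.49% (4.96% to 6.05%) and 4.00% (3.47% to 4.57%) of the kept nuclei, and left 57.7% and 60.1% without a class. In glutamatergic-gated nuclei all 12 markers of the list, Slc17a7, Neurod1, Neurod2 and Emx1 among them, were over 1.5-fold above all kept nuclei in both libraries, which the gate itself largely fixes. A likelihood gate over the same markers, added after the data were seen, took 1087 and 591 nuclei. It gives narrower intervals, and its values can differ. Its class profiles came from the nuclei of the marker z gate, so the 2 gates are not independent. Its glutamatergic nuclei held the 12 markers at a median of 1.76 (sham) and 1.90 (stroke) times all kept nuclei, against 2.11 and 2.53. In sham 11 of 12 were over 1.5-fold. Slc17a6/thalamic nuclei held their own markers less in stroke, at a median of 2.32 against 4.45 in sham by the marker z gate. By the likelihood gate the medians were 2.19 and 3.95, and 8 of 10 markers were over 1.5-fold in stroke. In Zic/Magel2 nuclei 9 of 10 were over 1.5-fold in each library by each gate.

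The glutamatergic class did not stand out by the 8 windows. Only Tbr1 had its highest sham level there, at 26.5 CPM (22.3 to 31.3), and its next classes, myeloid at 26.2 CPM and Slc17a6/thalamic at 24.7 CPM, overlapped it. In stroke, Tbr1 was at 18.8 CPM (13.9 to 24.8) in glutamatergic nuclei and was again highest there, and it was lowest in astrocytes in sham (9.92 CPM) and stroke (6.73 CPM). Per kb of window, Tbr1 was also the most accessible factor in glutamatergic sham nuclei (2.01 CPM per kb), followed by Fezf2 (1.41), Bcl11b (1.26), Cux2 (0.854), Cux1 (0.784), Tle4 (0.746), Rorb (0.427) and Foxp2 (0.141). The windows of Fezf2 (8.10 kb) and Tbr1 (13.2 kb) are the shortest, so this order is not a measure of openness apart from length. Foxp2, the longest gene, thus held fewer fragments than its length alone would collect, 76.8 CPM against 205 CPM for fragments spread evenly over the genome.

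**Figure D1:**
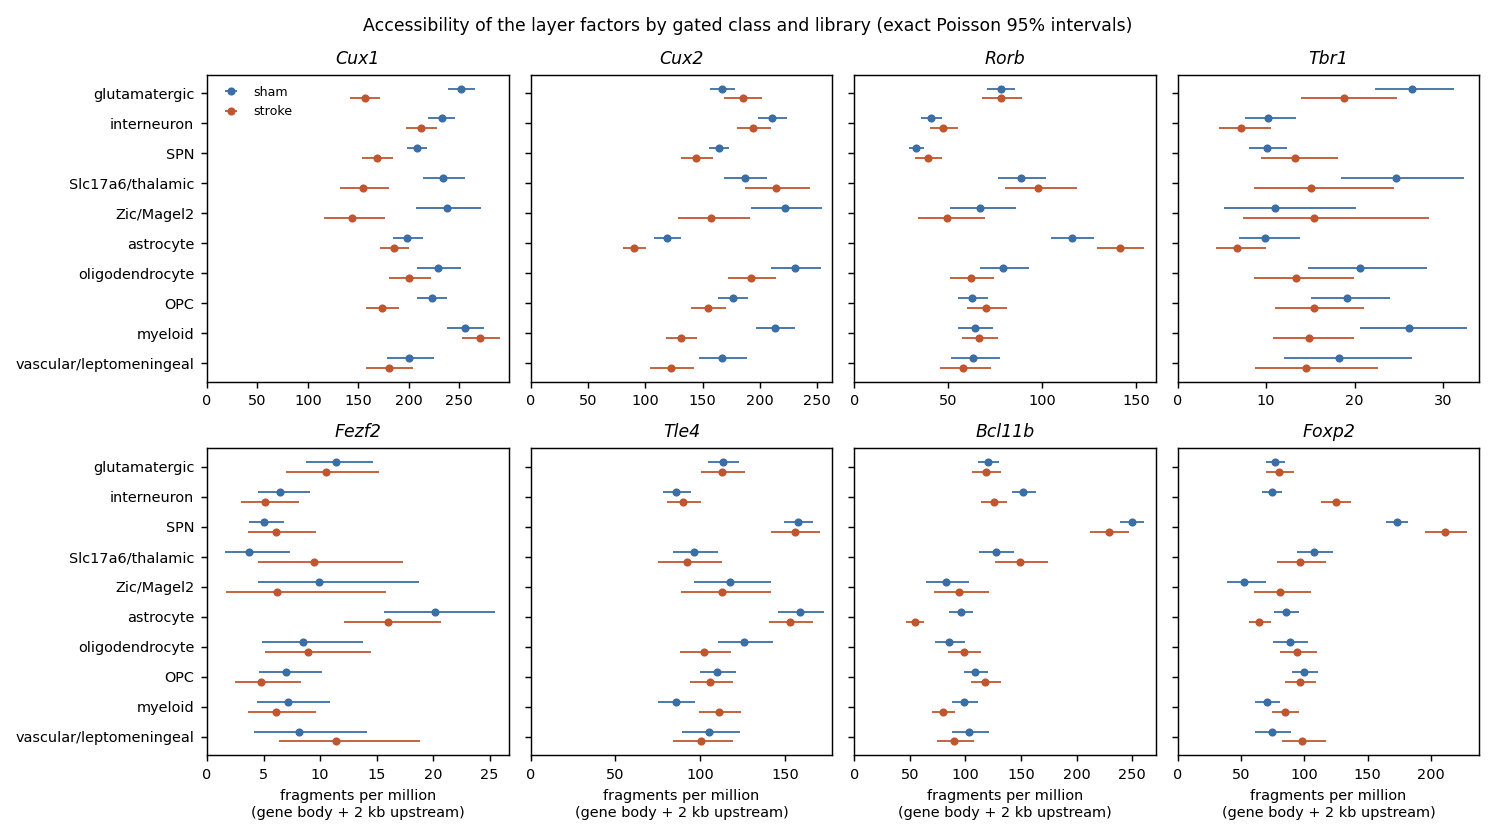
Each panel plots 1 factor, with CPM over gene body plus 2 kb upstream on the x axis and the 10 marker-gated classes on the y axis; points are the sham (blue) and stroke (red) libraries and bars are exact Poisson 95% intervals. Bcl11b and Foxp2 are highest in SPN, Rorb and Fezf2 are highest in astrocytes, and Cux1 differs little between sham classes (198.7 to 256 CPM).

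Among the upper-layer factors, Cux1 spanned only 198.7 CPM in astrocytes to 256 CPM in myeloid nuclei of the sham library, a 1.29-fold range in which every class overlapped its neighbour in the order. In stroke its range was 1.89-fold, and myeloid nuclei, at 271 CPM (253 to 290.4), stood above all other classes without overlap. Cux2 was lowest in astrocytes in both libraries, at 119 CPM (108 to 131) in sham and 90.1 CPM (80.5 to 101) in stroke, with no overlap with the next class. It was highest in oligodendrocytes in sham (231 CPM) and in Slc17a6/thalamic nuclei in stroke (214 CPM), and both overlapped the next class. The glutamatergic class lay in the middle of the order at 167 CPM and 185 CPM. By the likelihood gate interneurons were highest for Cux2 in both libraries, at 223 CPM and 194 CPM, again overlapping the next class.

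Rorb had a clear highest class, which was not the glutamatergic class. Astrocytes were highest, at 116 CPM (105 to 128) in sham and 141 CPM (129 to 154) in stroke, and in neither library did the next class, Slc17a6/thalamic at 88.6 CPM and 98.1 CPM, overlap them. Glutamatergic nuclei were at 77.9 CPM in sham and 78.1 CPM in stroke, above interneurons (40.7 and 47.3 CPM) and SPN (33.0 and 39.1 CPM). Fezf2 was likewise highest in astrocytes, at 20.1 CPM (15.7 to 25.5) in sham and 15.99 CPM (12.1 to 20.7) in stroke, against 11.4 CPM (8.72 to 14.7) and 10.5 CPM (6.99 to 15.2) in glutamatergic nuclei. The Fezf2 values rest on 69 and 57 astrocyte fragments and on 60 and 28 glutamatergic fragments, and its glutamatergic interval overlapped the astrocyte interval in stroke.

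Bcl11b and Foxp2 were highest in SPN. Bcl11b reached 249.7 CPM (239 to 260.5) in sham SPN and 229 CPM (212 to 247) in stroke SPN, against 120.4 and 118 CPM in glutamatergic nuclei. Foxp2 reached 173 CPM (164 to 182) and 211 CPM (195 to 229) in SPN, against 76.8 and 80.0 CPM in glutamatergic nuclei. Tle4, a corepressor of the Groucho family, was highest in astrocytes (159 and 153 CPM) and SPN (158 and 156 CPM), which did not separate from each other, and glutamatergic nuclei had 113 CPM in both libraries. Of the Tle4 fragments in all kept nuclei, the promoter (2 kb upstream to 0.5 kb downstream of the start) held 56.0 of 115 CPM in sham and 48.9 of 110 CPM in stroke, whereas it held 6.4 of 95.8 CPM and 5.44 of 105 CPM for Foxp2.

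The SPN excess of Foxp2 lay outside the bins that were open over all nuclei. Bins of 500 bp were called open where the mean of both libraries reached 0.8 CPM, or 4.24 times an even spread, an alternative added after the data were seen. Of the 1086 bins of Foxp2 only 7 were open, against 32 of 192 for Bcl11b, 41 of 643 for Cux1, 27 of 393 for Cux2, 7 of 366 for Rorb, 9 of 305 for Tle4, 8 of 28 for Tbr1 and 2 of 17 for Fezf2. Within open bins (per 1000000 open-bin fragments, likelihood gate), Foxp2 was at 25.7 CPM (20.8 to 31.3) in sham SPN and 25.3 CPM (21.6 to 29.5) in sham glutamatergic nuclei, and at 27.3 and 28.1 CPM in stroke. A bin used by SPN alone can miss a limit set on the mean of all nuclei. By the marker z gate, the Foxp2 bin picked in sham as highest in SPN over the other classes was intronic, 434 kb downstream of the start. It was 11.4 times (4.49 to 34.5) higher in sham SPN, from 22 and 6 fragments. In stroke SPN it was 15.9 times (3.62 to 95.2) higher, from 7 and 3 fragments. The bin picked by the likelihood gate, 468 kb downstream, was at 3.82 (0.859 to 13.7) in stroke, which includes 1. For Bcl11b the order stayed, with 216 CPM (202 to 232) in SPN against 129 CPM (121 to 138) in glutamatergic nuclei of sham, and 189 CPM (167 to 213) against 136 CPM (123 to 149.6) in stroke. Tbr1 in open bins was at 42.0 CPM in sham and 42.6 CPM in stroke glutamatergic nuclei, above interneurons (17.8 and 7.64 CPM) and astrocytes (11.2 and 9.26 CPM). Vascular and leptomeningeal (44.97 CPM), myeloid (43.7 CPM) and oligodendrocyte nuclei (42.9 CPM) of sham were as high.

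Over the 20 points of 10 classes in 2 libraries, the log2 levels of Bcl11b and Foxp2 varied most alike among the factors (Pearson r = 0.77), Rorb and Fezf2 had r = 0.61, Rorb and Bcl11b had r = -0.65, and Cux1 and Cux2 had only r = 0.23. These points share libraries, depth and the share of fragments in peaks, so r is a description. Among the genes most like Foxp2 over the same points were Penk (0.84) and Drd2 (0.84), both SPN markers of the gate itself. The closest to Bcl11b were Macrod2 (0.89), Ccdc149 (0.88) and Gnal (0.87), and the closest to Rorb were Slc1a2, the astrocyte glutamate transporter (0.85), Boc (0.85) and Gcnt4 (0.84). For Tbr1 they were Ptprd (0.88), Ift88 (0.86) and Pdcd1 (0.84), and for Fezf2 they were Fgfr2, Fgd6 and Tpcn1 (0.78 each). Cux1 was followed by Twf2 (0.83), Hs6st1 (0.80) and Copg2 (0.79), Cux2 by Agtpbp1 (0.88), Jakmip2 (0.87) and Snap91 (0.86), and Tle4 by Gucd1 (0.85), Ccdc88c (0.82) and Myo18a (0.81).

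Single elements within the loci were also measured. In the sham library, 500 bp bins were picked for each factor. Bins over 1 kb from the start of a protein-coding gene gave the most open bin in glutamatergic nuclei. Further picks had the largest ratio of the factor's own layer over the other, or of its highest class over the other classes. A bin unequal in the opposite direction could not be picked by these ratios. The picks were then measured in the stroke library, so their sham ratios describe the choice and only the stroke ratios are apart from it. A bin could be picked more than once, and the share over bins that were not picked was not measured. By the marker z gate, 12 of 15 picks had a stroke ratio above 1, and for 5 the interval lay above 1 in both libraries. By the likelihood gate, 18 of 21 picks had a stroke ratio above 1, and for 10 the interval lay above 1 in both libraries. Of the 10, 9 were intronic and fell in 8 bins, of which 6 are shown as windows. Among the other picks were the Tle4 layer bin, next to the gene start, at 1.09 (0.707 to 1.68) in sham, and a Tbr1 bin picked in glutamatergic nuclei, at 0.704 (0.131 to 2.46) in stroke. The windows are 300 bases long, and each is part of a picked 500 bp bin. The layer and class values given after them are those of the whole bin, not of the printed bases alone. The bases are those of the mm10 reference genome on the strand of the gene, 5′ to 3′, and capitals mark matches to the motifs named below them.
Cux1 upper window, chr5:136427815-136428114, minus strand: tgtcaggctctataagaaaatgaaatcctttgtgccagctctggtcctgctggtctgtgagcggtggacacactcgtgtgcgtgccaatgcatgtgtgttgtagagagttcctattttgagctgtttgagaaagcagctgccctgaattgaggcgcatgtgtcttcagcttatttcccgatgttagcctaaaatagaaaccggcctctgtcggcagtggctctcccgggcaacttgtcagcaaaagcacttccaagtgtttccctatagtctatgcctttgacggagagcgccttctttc
Cux2 upper window, chr5:121892366-121892665, minus strand: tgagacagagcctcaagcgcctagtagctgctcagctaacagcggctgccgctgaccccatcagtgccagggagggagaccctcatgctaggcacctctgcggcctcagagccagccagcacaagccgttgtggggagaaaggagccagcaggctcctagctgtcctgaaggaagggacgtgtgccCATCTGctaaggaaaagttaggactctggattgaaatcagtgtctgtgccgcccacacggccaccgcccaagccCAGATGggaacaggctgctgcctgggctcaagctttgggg
Foxp2 glutamatergic window, chr6:14925046-14925345, plus strand: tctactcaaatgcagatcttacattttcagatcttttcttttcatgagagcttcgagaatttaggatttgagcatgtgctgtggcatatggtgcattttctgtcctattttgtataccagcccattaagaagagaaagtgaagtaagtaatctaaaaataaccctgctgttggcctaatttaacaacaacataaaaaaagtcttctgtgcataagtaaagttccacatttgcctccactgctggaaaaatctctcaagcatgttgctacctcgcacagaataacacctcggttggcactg
Rorb glutamatergic window, chr19:19005201-19005500, minus strand: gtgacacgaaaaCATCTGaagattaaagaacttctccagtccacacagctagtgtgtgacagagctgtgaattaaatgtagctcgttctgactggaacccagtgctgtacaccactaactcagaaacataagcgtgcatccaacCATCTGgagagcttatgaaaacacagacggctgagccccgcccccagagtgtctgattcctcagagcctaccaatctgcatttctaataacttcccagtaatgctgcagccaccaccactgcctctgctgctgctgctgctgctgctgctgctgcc
Rorb astrocyte window, chr19:19040711-19041010, minus strand: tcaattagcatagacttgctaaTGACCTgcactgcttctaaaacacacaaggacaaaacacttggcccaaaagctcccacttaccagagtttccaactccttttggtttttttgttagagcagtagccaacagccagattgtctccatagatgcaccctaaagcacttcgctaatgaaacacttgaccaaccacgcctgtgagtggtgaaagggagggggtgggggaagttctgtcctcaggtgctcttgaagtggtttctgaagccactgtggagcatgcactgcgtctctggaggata
Tle4 astrocyte window, chr19:14566650-14566949, minus strand: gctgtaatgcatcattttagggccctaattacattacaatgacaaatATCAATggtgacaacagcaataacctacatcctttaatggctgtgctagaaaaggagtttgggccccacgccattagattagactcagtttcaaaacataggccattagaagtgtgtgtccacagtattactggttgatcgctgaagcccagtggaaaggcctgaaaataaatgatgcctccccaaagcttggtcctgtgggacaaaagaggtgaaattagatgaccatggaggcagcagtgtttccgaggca

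All 6 windows are intronic and lie 2199 to 39594 bp from the nearest exon, with 38.3% (Foxp2) to 61% (Cux2) of G and C. Both strands were searched for CAGATG (an E-box of Neurod factors), GGTGTGA (T-box, as for Tbr1), GTAAACA (forkhead, as for Foxp2), AGGTCA (the core of the Ror receptor site), ATTGAT (a Cux core), TGACTCA (AP-1) and the MEF2 motif with any 4 bases at its centre, none of which overlapped another in these windows. CAGATG occurred at 2 places in the Cux2 window, at bases 187 to 192 on the opposite strand and 261 to 266 on the same strand, and at 2 places in the Rorb glutamatergic window, at bases 13 to 18 and 145 to 150 on the opposite strand. AGGTCA occurred in the Rorb astrocyte window at bases 23 to 28 and ATTGAT in the Tle4 window at bases 48 to 53, both on the opposite strand. Of 116017 open bins away from gene starts, 28.0% held CAGATG in their central 300 bases, 15.7% AGGTCA, 7.20% ATTGAT, 5.37% GGTGTGA, 3.45% GTAAACA, 9.93% TGACTCA and 4.99% the MEF2 motif. These matches are descriptions, and the lack of a match in the Cux1 and Foxp2 windows says only that these letters are not there. Other forms of the same motifs were not searched.

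The Cux2 window lies 157.6 kb downstream of the gene start. In likelihood-gated glutamatergic nuclei its 500 bp bin had 7.58 CPM (6.26 to 9.10) in sham and 5.46 CPM (3.97 to 7.34) in stroke. Astrocytes had 1.55 and 0.200 CPM there, and SPN had 1.30 and 1.75 CPM. In sham, vascular and leptomeningeal (6.64 CPM, 3.80 to 10.8), myeloid (5.58 CPM, 3.54 to 8.37) and oligodendrocyte nuclei (4.78 CPM, 2.47 to 8.36) overlapped the glutamatergic value, as vascular and leptomeningeal (3.98 CPM, 1.82 to 7.55), oligodendrocyte (2.72 CPM, 1.09 to 5.61), OPC (2.63 CPM, 1.14 to 5.19) and myeloid nuclei (2.06 CPM, 0.891 to 4.06) did in stroke. Its 500 bp bin was 3.87 times higher (2.27 to 6.93) in the upper than in the deep gate in sham, from 67 and 18 fragments, and 2.64 times (1.18 to 6.19) in stroke, from 18 and 11 fragments. With bins shifted by 250 bp the stroke ratio was 2.08 (0.976 to 4.51), which includes 1. The bin of the Cux1 window, 139.6 kb downstream of the start, was 3.81 times higher (1.90 to 8.28) in the upper gate of sham, from 37 and 11 fragments. In stroke the Cux1 bin had 14 upper and 2 deep fragments, a ratio of 8.81 with an interval of 2.02 to 79.9. By class (likelihood gate), myeloid nuclei had 2.84 CPM (1.42 to 5.07) there in stroke and glutamatergic nuclei 2.36 CPM (1.42 to 3.69), against 2.18 and 4.02 CPM in sham. A further Cux1 bin, 79.6 kb downstream, was 2.24 times (1.74 to 2.88) and 3.05 times (2.07 to 4.47) higher in glutamatergic nuclei than in the other classes summed. Myeloid nuclei of sham had 7.13 CPM in this bin by the marker z gate, against 9.33 CPM in glutamatergic nuclei. By the marker z gate this bin was the layer pick of Cux1, with an upper over deep ratio of 1.86 (0.840 to 4.32) in sham and 0.881 (0.213 to 3.46) in stroke, and the layer pick of Tle4 had deep over upper ratios of 0.831 (0.605 to 1.14) and 1.01 (0.630 to 1.63), all including 1.

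The bin of the Foxp2 window, 23.8 kb downstream of the start, had 2.37 CPM (1.66 to 3.29) in glutamatergic nuclei of sham. It had 1.24 CPM (0.596 to 2.28) in those of stroke, and SPN had 0.599 and 0.25 CPM there. In sham, interneurons, SPN and astrocytes lay below without overlap, and the other classes overlapped the glutamatergic value, myeloid nuclei at 1.94 CPM (0.838 to 3.82) among them. In stroke every class overlapped it, SPN included (0.00634 to 1.40), and vascular and leptomeningeal nuclei were at 1.33 CPM (0.273 to 3.87). By the marker z gate myeloid nuclei of sham and vascular and leptomeningeal nuclei of stroke lay above the glutamatergic values, from 6 and 2 fragments. The Foxp2 bin was 3.54 times (2.09 to 6.06) and 4.17 times (1.52 to 11.6) higher in glutamatergic nuclei than in the other classes summed. By the marker z gate it was 2.61 times (1.05 to 5.99) and 2.86 times (0.488 to 11.9) higher. In Rorb, the glutamatergic and astrocyte windows lie 105.8 kb and 70.3 kb downstream of the same start. The bin of the Rorb astrocyte window had 6.73 CPM (4.40 to 9.86) in sham astrocytes and 3.41 CPM (1.99 to 5.46) in stroke astrocytes. It had 1 glutamatergic fragment in sham and 0 in stroke, which allows up to 0.458 CPM. The bin of the Tle4 window was 17.4 times (9.78 to 31.4) and 17.2 times (6.84 to 48.6) higher in astrocytes than in the other classes of sham and stroke. The bin of the Rorb glutamatergic window was at 3.10 CPM (2.28 to 4.12) and 3.97 CPM (2.72 to 5.61) in glutamatergic nuclei. It was at 0.518 CPM (0.0627 to 1.87) in sham astrocytes, from 2 fragments, and at 3.01 CPM (1.68 to 4.96) in stroke astrocytes, from 15 fragments. Myeloid (3.88 CPM) and oligodendrocyte nuclei (3.19 CPM) of sham lay above the glutamatergic value, and interneurons, SPN and astrocytes alone lay below it without overlap. In stroke interneurons, Zic/Magel2 and vascular and leptomeningeal nuclei alone lay below it without overlap. The name of this window gives only how it was picked.

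**Figure D2:**
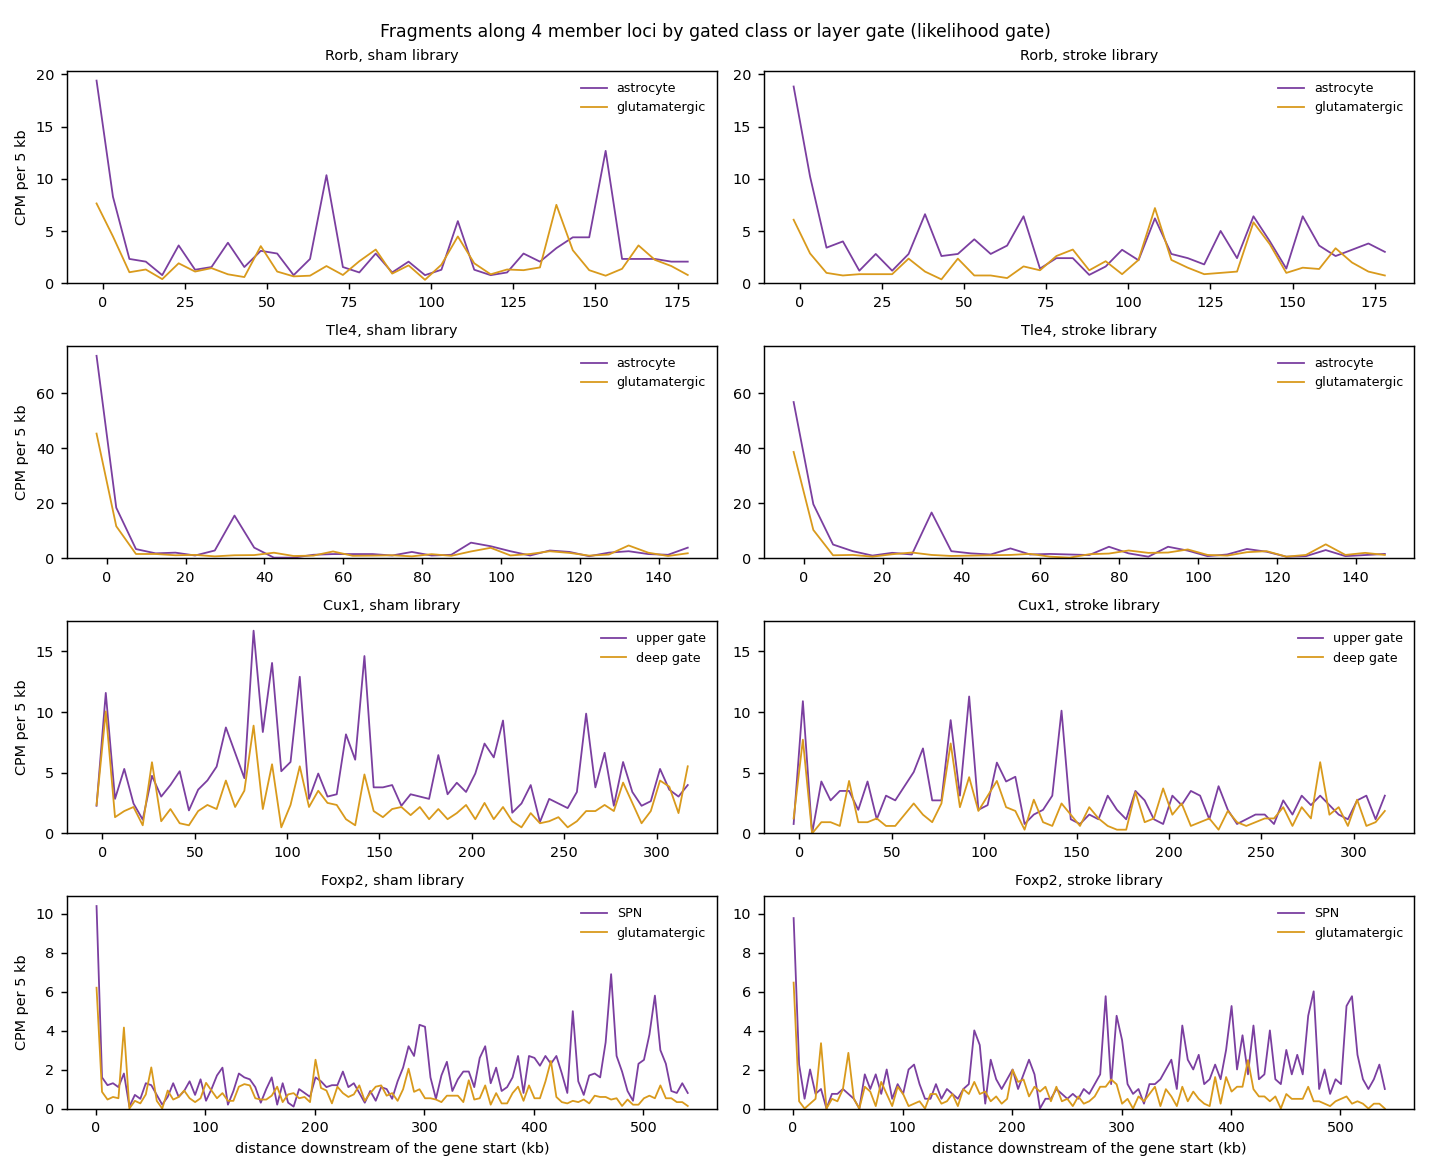
CPM per 5 kb (y axis) against the distance downstream of the gene start in kb (x axis) along Rorb, Tle4, Cux1 and Foxp2, in the sham (left) and stroke (right) library, for a pair of classes or layer gates from the likelihood gate (colours named in each panel). The Tle4 peak near 31.2 kb is present in astrocytes of both libraries and nearly absent from glutamatergic nuclei, and the Foxp2 peak near 23.8 kb is higher in glutamatergic nuclei than in SPN, without overlap in sham.

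Within glutamatergic-gated nuclei, layer gates were built from the factors themselves, each factor being left out of the gate in which it was measured. A nucleus was upper where the z of the other upper factors exceeded that of the other deep factors by 1, and deep where it was lower by 1. The tissue was not limited to cortex, so upper and deep name the factors used and not a location. By the marker z gate these held 123 to 141 upper and 146 to 163 deep sham nuclei, and 49 to 71 and 77 to 90 stroke nuclei. The gates share nuclei and overlap in the genes used, so the 8 ratios are not independent of each other. A ratio of at most 0.8 or at least the inverse of 0.8 (0.32 on the log2 scale) is called past the fold below. Past the fold in their own direction were 6 of 8 factors in sham and 6 of 8 in stroke, where all genes with at least 50 fragments in the gates gave 20.4% higher in deep and 19.9% higher in upper nuclei of sham, and 26.2% and 22.6% of stroke. Fezf2 in both libraries and Tbr1 in stroke had under 50 fragments.

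Cux1 and Cux2 were both higher in upper nuclei by the marker z gate. Cux1 was at 346 CPM (320 to 374) in upper and 182 CPM (164 to 202) in deep nuclei of sham, a ratio of 1.90 (1.67 to 2.17), and at 180 CPM (154 to 209) and 122 CPM (101 to 145) in stroke, a ratio of 1.47 (1.16 to 1.87). Cux2 was at 246 and 104 CPM in sham, a ratio of 2.36 (2.01 to 2.79), and at 293 and 104 CPM in stroke, a ratio of 2.83 (2.23 to 3.61). Upper and deep intervals of both genes did not overlap in either library, although in stroke nuclei the Cux1 ratio was 1.09 (0.768 to 1.55) with a stricter gate and 0.944 (0.573 to 1.54) after thinning to 5000 fragments per nucleus. Over 13 alternative settings the sham ratio ranged from 1.23 to 2.47 for Cux1 and from 1.47 to 6.50 for Cux2, and the stroke ratio from 0.944 to 1.89 and from 2.03 to 4.23. Rorb was at 77.3 CPM in upper and 82.0 CPM in deep nuclei of sham and at 80.4 and 66.2 CPM in stroke, with ratios of 0.942 (0.755 to 1.17) and 1.21 (0.861 to 1.71). By the likelihood gate Rorb leaned to the upper gate in sham, by 1.18 (1.03 to 1.34), and had 1.04 (0.849 to 1.28) in stroke. With layer gates from genes other than the factors its upper over deep ratio was 1.36 (1.08 to 1.73) in sham and 1.96 (1.38 to 2.84) in stroke.

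Of the deep factors, Foxp2 and Bcl11b were higher in deep nuclei of both libraries over their whole windows. Foxp2 was at 126 CPM in deep and 36.0 CPM in upper nuclei of sham, a ratio of 3.5 (2.67 to 4.65), and at 105 and 63.1 CPM in stroke, a ratio of 1.67 (1.19 to 2.35). Bcl11b was at 160.4 and 87.7 CPM in sham, a ratio of 1.83 (1.51 to 2.21), and at 136 and 94.9 CPM in stroke, a ratio of 1.43 (1.08 to 1.91). The Foxp2 window, though mostly closed, thus had the largest layer ratio of the 8 by this gate in sham. By the likelihood gate the same ratios were 2.17 (1.90 to 2.49) and 1.45 (1.20 to 1.78) for Foxp2, and 1.69 (1.52 to 1.89) and 1.34 (1.14 to 1.57) for Bcl11b. In open bins alone (likelihood gate) Foxp2 had 2.33 (1.55 to 3.58) in sham and 1.46 (0.865 to 2.53) in stroke, and Bcl11b had 1.60 (1.36 to 1.89) and 1.01 (0.802 to 1.28), so that both stroke intervals included 1. By the marker z gate the open-bin intervals of both factors included 1 in both libraries. For Bcl11b the direction turned with promoters alone, at 0.914 in sham and 0.602 in stroke, and in thinned stroke nuclei, at 0.986.

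Tle4 was at 128 CPM in deep and 107 CPM in upper nuclei of sham (1.20, 0.997 to 1.44) and at 133 and 78.5 CPM in stroke (1.69, 1.27 to 2.28). Its likelihood-gate ratios of 1.18 (1.06 to 1.32) and 1.29 (1.08 to 1.54) fell to 0.939 and 1.05 in open bins. Tbr1 was at 38.0 CPM in deep and 21.1 CPM in upper nuclei of sham (1.80, 1.22 to 2.69), but at 19.95 and 20.8 CPM in stroke (0.961, 0.492 to 1.90), and the likelihood gate gave 1.22 (0.979 to 1.53) and 0.890 (0.627 to 1.27), neither apart from 1. Fezf2 was at 14.3 CPM in deep and 8.85 CPM in upper nuclei of sham and at 16.5 and 7.45 CPM in stroke. Its marker z gate ratios of 1.62 (0.869 to 3.10) and 2.21 (0.841 to 6.81) included 1, and the likelihood gate gave 2.31 (1.53 to 3.55) in sham and 1.77 (0.956 to 3.46) in stroke. Over the 13 settings the direction of Fezf2 turned in sham, from 0.306 (thinned nuclei) to 6.28 (stricter gate), and its stroke ratio ranged from 1.11 to 5.38. Tbr1 ranged from 0.600 to 2.02 in sham and from 0.429 to 2.32 in stroke, and Tle4 from 0.844 to 1.42 and from 1.01 to 1.80.

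**Figure D3:**
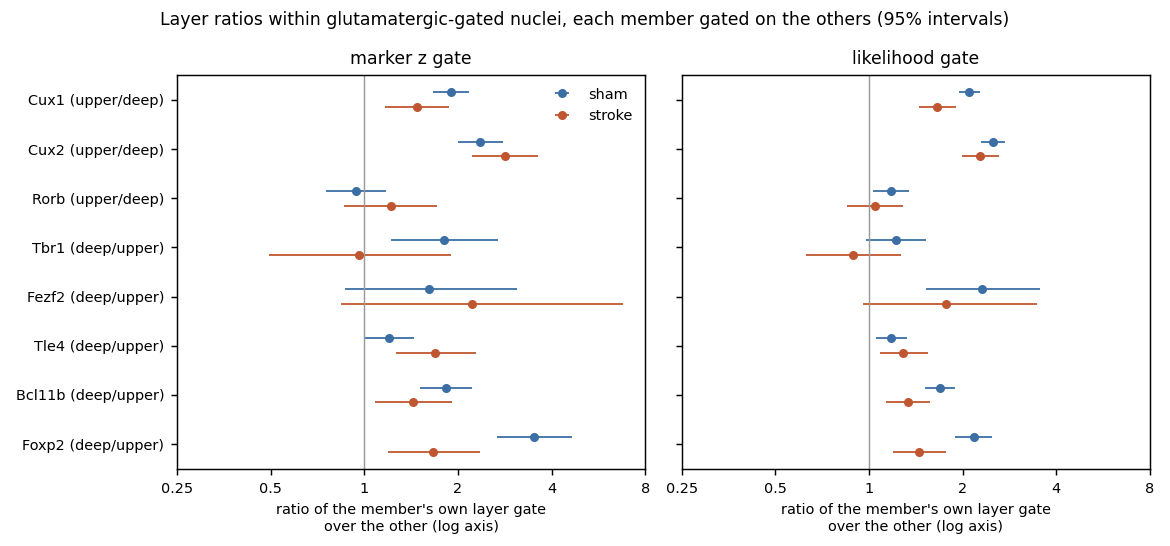
The x axis (log scale) gives each factor's CPM in its own layer gate over the other, with the factor left out of the gate, for the sham (blue) and stroke (red) libraries by the marker z gate (left) and the likelihood gate (right); bars are exact 95% intervals. Cux1, Cux2, Bcl11b and Foxp2 lie above 1 in both libraries by both gates, and Rorb and Tbr1 lie near 1 in stroke.

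The gates also split other layer genes that took no part in them. These lists were chosen with earlier results of these data known, so they are not an independent check. Of 12 further upper-layer genes, 11 had at least 50 fragments in the sham gates, 7 were past the fold towards upper and 0 towards deep nuclei, as were 19.9% and 20.4% of all genes, and the median deep over upper ratio was 0.718. Of 16 further deep-layer genes 14 had enough fragments, 10 were past the fold towards deep and 2 towards upper nuclei, and the median was 1.43, beside a median log2 ratio of 0.01 over all genes. The highest ratios were those of Crym (2.38), Hs3st4 (2.15) and Cplx3 (1.90, from 14 upper and 27 deep fragments), and the lowest those of Lhx2 (0.5), Unc5d (0.520) and Nectin3 (0.581). In stroke, where 26.2% of all genes were past the fold towards deep and 22.6% towards upper nuclei, 5 of 9 upper genes were past it towards upper and 1 (Otof, 1.39) towards deep nuclei, and 6 of 9 deep genes were past it towards deep and 0 towards upper nuclei. Crym was at 0.908 there.

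Between the libraries, over all kept nuclei, Cux2 was the only factor lower past the fold, and 0 were higher, where 5.09% of 20037 genes were lower and 17.3% higher. Cux2 was at 193 CPM in sham and 154 CPM in stroke, a ratio of 0.799 (0.777 to 0.821), and Cux1 was at 228 and 185 CPM, just inside the fold at 0.812 (0.792 to 0.833). The others ranged from 0.840 (0.772 to 0.914) for Tbr1 and 0.864 (0.836 to 0.892) for Bcl11b to 1.10 (1.06 to 1.14) for Foxp2 and 1.12 (1.07 to 1.17) for Rorb, with Tle4 at 0.957 (0.926 to 0.990). The Fezf2 ratio of 1.07 (0.942 to 1.21) did not separate from 1. In open bins Cux2 and Cux1 were at 0.828 (0.781 to 0.878) and 0.896 (0.854 to 0.941) and Fezf2 was at 1.55 (1.22 to 1.96), beside 3.5% of genes lower and 9.91% higher there.

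Quality and composition moved with these values. The median share of fragments in peaks was 38.8% in sham and 33.2% in stroke nuclei. The summed CPM of the marker lists was 0.852 times as high in stroke for glutamatergic and 0.819 times for SPN markers, and 1.04 to 1.15 times for the other lists. The 3686 stroke barcodes left out by the peak filter had Cux1 at 132 CPM, Cux2 at 82.3 CPM, Tbr1 at 9.21 CPM and Bcl11b at 58.6 CPM, all below the kept stroke nuclei, and Foxp2 at 245 CPM (240.2 to 250.5), above them. For 7 of 8 factors the kept stroke nuclei differed from sham towards the side on which these barcodes lay. The same share over all genes was not measured, so this count says nothing particular to the factors. The part of quality and composition in the ratios was not tested.

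Within glutamatergic-gated nuclei Cux1 differed most between the libraries over the whole windows. It was at 252 CPM (239 to 266) in sham and 156 CPM (142 to 172) in stroke, a ratio of 0.620 (0.554 to 0.692), and by the likelihood gate at 234 and 157 CPM, a ratio of 0.672 (0.630 to 0.717). Cux1 and Tbr1, 2 of 8, were past the fold by the marker z gate, where 20.2% of genes were lower and 12.5% higher, and Cux1 alone by the likelihood gate, where 11.4% were lower and 10.3% higher. Tbr1 was at 26.5 and 18.8 CPM (0.709, 0.503 to 0.986) by the first gate and at 28.2 and 26.5 CPM (0.938, 0.792 to 1.11) by the other. Cux2, the paralog of Cux1, was at 1.11 (0.989 to 1.24) by the first gate and at 0.848 (0.795 to 0.904) by the other, and its open bins were at 0.990 (0.873 to 1.12). In open bins Cux1 was still lower, at 0.787 (0.645 to 0.956) by the first gate and 0.799 (0.713 to 0.895) by the other. Rorb (0.734, 0.494 to 1.07) and Foxp2 (1.37, 0.845 to 2.20) lay further from 1 there by the first gate. Fezf2 (1.39, 0.791 to 2.39) did by the other, and all these intervals included 1. With nuclei thinned to 5000 fragments and gated again Cux1 was at 0.839 (0.660 to 1.06), which includes 1. The share of fragments in peaks in these nuclei was 44.3% in sham and 37.8% in stroke.

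The lower Cux1 level was seen in both layer gates. In upper nuclei Cux1 had a stroke over sham ratio of 0.520 (0.437 to 0.616) by the marker z gate and 0.593 (0.536 to 0.656) by the likelihood gate, and in deep nuclei 0.669 (0.541 to 0.823) and 0.754 (0.667 to 0.850), but in thinned nuclei the deep ratio was 1.01. Over the 10 classes Cux1 was lower in stroke in 9 by the first gate, 5 of them with an interval that excluded 1, and myeloid nuclei were the exception at 1.06 (0.958 to 1.17). By the other gate Cux1 was lower in 10 of 10, myeloid nuclei included at 0.995. In open bins by the first gate SPN (1.02), oligodendrocytes (1.02), OPC (1.06) and myeloid nuclei (1.03) lay above 1. Cux2 was lower in 8 of 10 classes by the first gate and in 10 of 10 by the other. The median log2 ratio over all genes was also negative in every class by both gates. By the first gate it ran from -0.03 in myeloid to -0.15 in Slc17a6/thalamic nuclei, so the direction alone is not particular to Cux1 or Cux2. Tbr1 in deep nuclei was at 38.0 CPM in sham and 19.95 CPM in stroke (0.524, 0.311 to 0.851), and at 0.740 (0.558 to 0.974) by the likelihood gate. That Tbr1 ratio was 1.01 in thinned nuclei and 1.06 with layer gates from other genes, and in open bins it was 0.662 (0.343 to 1.21), which includes 1. Rorb, Fezf2, Tle4, Bcl11b and Foxp2 had glutamatergic ratios of 0.920 to 1.04 by the marker z gate, all with intervals that included 1.

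**Figure D4:**
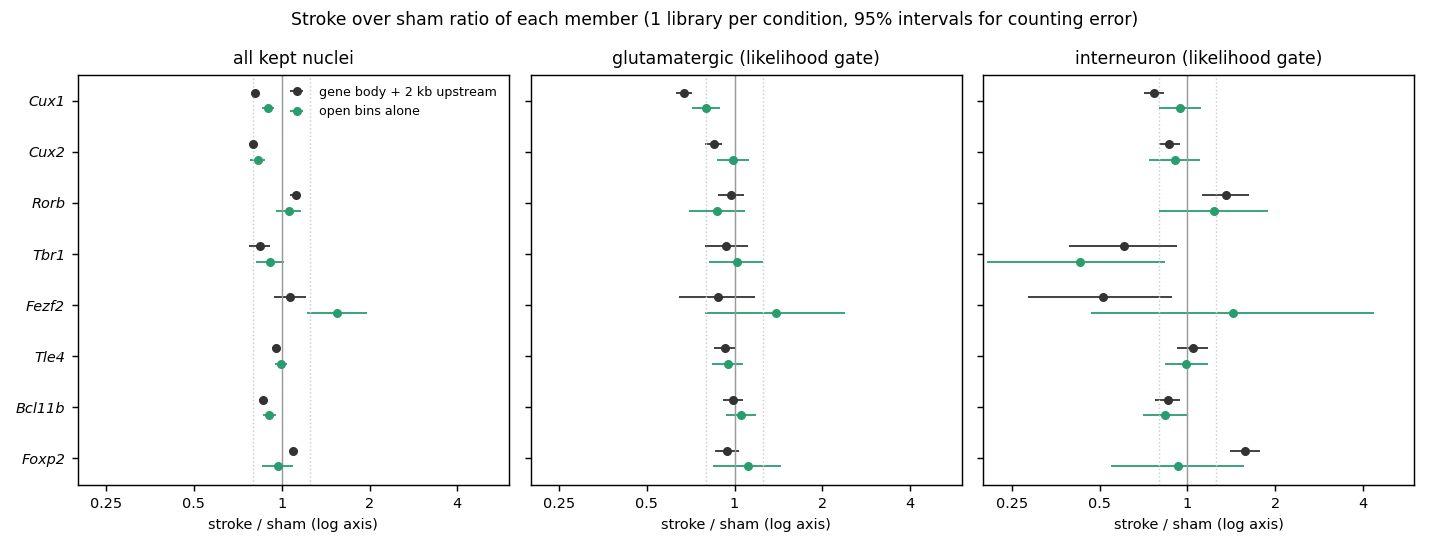
The x axis (log scale) gives the stroke over sham ratio of each factor in all kept nuclei, glutamatergic nuclei and interneurons, for the gene body plus 2 kb upstream (black) and for open bins alone (green), with exact 95% intervals and dotted lines at 0.8 and its inverse. Cux1 lies below 1 on both measures in glutamatergic nuclei, whereas Foxp2 in interneurons lies above 1 on the whole window only.

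Outside the glutamatergic class, Cux2 was lower in stroke in astrocytes, at 119 and 90.1 CPM (0.755, 0.650 to 0.875), and more so in their open bins, at 0.475 (0.348 to 0.644) by the marker z gate and 0.516 (0.389 to 0.683) by the likelihood gate. In myeloid nuclei Cux2 was at 213 and 131 CPM (0.615, 0.541 to 0.699), Tbr1 at 26.2 and 14.9 CPM (0.569, 0.384 to 0.835) and Tle4 at 85.6 and 111 CPM (1.30, 1.10 to 1.54). The likelihood gate gave 0.697, 0.527 and 1.28 for the same 3 genes in myeloid nuclei. In open bins of myeloid nuclei Cux2 was at 0.867 (0.652 to 1.15) and 0.947 (0.753 to 1.19) by the 2 gates, both including 1. Foxp2 was higher in stroke myeloid nuclei over its whole window, at 70.3 and 84.9 CPM (1.21, 1.001 to 1.46) and by the likelihood gate at 1.41 (1.20 to 1.67), but lower in open bins, at 0.446 (0.223 to 0.844) and 0.476 (0.260 to 0.836), from 37 and 14 fragments by the marker z gate. Of all genes in astrocytes 20% were lower past the fold, and in myeloid nuclei 26.2% were lower and 24.8% higher. Bcl11b in astrocytes was at 95.7 and 54.4 CPM (0.569, 0.474 to 0.681) by the marker z gate but at 64.5 and 56.9 CPM (0.883, 0.743 to 1.05) by the likelihood gate, so that value depends on which nuclei are taken as astrocytes.

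Foxp2 in interneurons was at 74.2 CPM (66.9 to 82.1) in sham and 125 CPM (113 to 137) in stroke, a ratio of 1.68 (1.46 to 1.93), where 10.4% of genes were higher past the fold. The likelihood gate gave 76.6 and 120.4 CPM, a ratio of 1.57 (1.39 to 1.77). In open bins the ratios were 0.753 (0.387 to 1.41) and 0.931 (0.546 to 1.56), so the difference lay in fragments outside open bins, as the SPN excess of Foxp2 did. The barcodes left out of the stroke library were also high in Foxp2 and are not part of the interneuron value. A link between them was not tested. The share of fragments in peaks in interneurons was 34.7% in sham and 30.4% in stroke, and its part in the value was not tested.

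Other layer genes in glutamatergic nuclei moved in both directions between the libraries. By the marker z gate 20.2% of all genes were lower past the fold in stroke and 12.5% higher, and by the likelihood gate 11.4% and 10.3%. Of the 12 further upper-layer genes 1 was lower past the fold and 0 higher, with a median ratio of 0.907, and of the 16 deep-layer genes 4 were lower and 4 higher, with a median of 1.04 and a median log2 ratio over all genes of -0.07. The lower gene of the upper list was Otof (0.767). Those of the deep list were Bcl6 (0.597), Etv1 (0.648), Nr4a2 (0.711) and Ntsr1 (0.728), and the higher genes were Crym (1.42), Hs3st4 (1.35), Zfpm2 (1.30) and Sulf1 (1.30). By the likelihood gate the lower upper gene was Lhx2 (0.699, against 1.08 by the first gate), and of the deep list Nr4a2 (0.734) and Nxph4 (0.796) were lower and Sulf1 (1.26) higher. Otof (0.817), Bcl6 (0.956), Etv1 (1.03), Ntsr1 (0.828), Crym (1.12), Hs3st4 (1.19) and Zfpm2 (1.14) were not past the fold by that gate.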

How the data were processed

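Reads were aligned by the authors to mm10 with Cell Ranger ATAC 2.1.0, who deposited, per library, the fragments with barcodes and a table of barcodes; their values are raw counts, not normalized. The deposited counts in peaks gave the filter on over 20% in peaks. From the fragments, fragments over each gene body (GENCODE M21) plus 2 kb upstream were counted per 1000000 in Python 3.11.15 with numpy 2.4.6, scipy 1.17.1 and pandas 2.3.3. The deposited labels gave the 2 groups, sham and stroke, each of 1 library with 73477848 and 52794287 kept fragments. Ratios have exact conditional binomial intervals, levels have exact Poisson intervals, and no test was run. The marker z gate and the ratios over all kept nuclei were tried on simulated counts, with nuclei drawn from that gate's own class profiles. The likelihood gate, the layer gates and the open bins were not. No doublets were removed. The members and gene lists were chosen with earlier results of these data known. The likelihood gate, the open bins and the bins of the highest class were added after the data were seen. Named genes were the 8 factors, the 3 genes most alike to each (1 of them is not reported here), by r of log2(CPM + 1) among genes of at least 20 CPM in some class whose windows lay over 1 Mb away, and, of the other layer genes, the 3 highest, the 3 lowest and those past the fold between libraries. The 500 bp bins needed at least 30 fragments for layers and 15 for classes. The study's scRNA-seq data were not used here.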

Additional observations from a re-analysis of the deposited data

Results flagged for a closer look

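Several factors moved in opposite directions between the libraries in different classes, each past the fold of 0.8 or its inverse with an interval that excluded 1. The differences between classes were not tested. The share of all genes with such opposite ratios was not measured, so these say nothing particular to the factors. By the marker z gate Foxp2 had a stroke over sham ratio of 0.757 (0.634 to 0.903) in astrocytes, against 1.68 (1.46 to 1.93) in interneurons, 1.53 (1.01 to 2.31) in Zic/Magel2 nuclei and 1.32 (1.02 to 1.72) in vascular and leptomeningeal nuclei. Of all genes by that gate, 20% were lower past the fold in astrocytes. Higher past the fold were 10.4% in interneurons, 17.6% in Zic/Magel2 nuclei and 19.9% in vascular and leptomeningeal nuclei. By the likelihood gate the astrocyte ratio of Foxp2 was 1.13 (0.968 to 1.32) and the Zic/Magel2 ratio 1.04 (0.853 to 1.28). By that gate Rorb had 0.775 (0.637 to 0.940) in Slc17a6/thalamic nuclei, against 1.35 (1.12 to 1.63) in interneurons and 1.31 (1.07 to 1.59) in SPN, but by the marker z gate the same ratios were 1.11 (0.863 to 1.41), 1.16 (0.941 to 1.43) and 1.18 (0.945 to 1.47), all including 1. By the likelihood gate Fezf2 had 0.513 (0.285 to 0.887) in interneurons and 2.44 (1.15 to 5.45) in Slc17a6/thalamic nuclei, both from few fragments. By the marker z gate Fezf2 had 0.790 (0.419 to 1.44) and 2.53 (0.899 to 7.37), both including 1. Of all genes by the likelihood gate, 20.4% were lower past the fold and 10.3% higher in interneurons. In Slc17a6/thalamic nuclei 32.2% were lower and 12.8% higher, and in SPN 12.9% were higher. Slc17a6/thalamic nuclei held their own markers less in stroke, and the part of this in the ratios was not tested. Tle4 had intervals that excluded 1 on both sides by both gates, at 0.811 (0.665 to 0.988) in oligodendrocytes and 1.30 (1.10 to 1.54) in myeloid nuclei by the marker z gate and at 0.826 (0.696 to 0.979) and 1.28 (1.11 to 1.47) by the likelihood gate, but its lower values were not past the fold. In the called stroke barcodes left out by the peak filter, outside the kept nuclei, Foxp2 was at 245 CPM (240.2 to 250.5), above the 105 CPM of kept stroke nuclei and the 205 CPM of an even spread of fragments.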

How the results depend on the processing

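Of 552 alternative ratios of single factors, 114 lay on the other side of 1 from the reported ratio. In 14 of these the reported ratio had been past the fold with an interval that excluded 1, and they are given below. Apart from these 14, 409 alternatives lay within the 95% interval of the reported ratio and 129 outside it. The number of factors lower past the fold of 0.8 in all kept nuclei (1) became 4 with all called barcodes and 0 with fragments at gene starts only, with nuclei thinned to 5000 fragments and in open bins, and the number higher (0) became 1 with all called barcodes and in open bins. The number highest in glutamatergic nuclei (1) became 0 with promoters alone, gene starts, thinned nuclei, the stricter gate (z of 3, margin of 2), alternate markers and open bins. The number above 1 in its own layer gate in both libraries (6) became 3 in thinned nuclei. In glutamatergic nuclei the number lower (2) became 1 with all called barcodes, promoters, alternate markers and the likelihood gate and 0 in thinned nuclei. The number higher (0) became 1 with promoters, the stricter gate and open bins and 2 in thinned nuclei. In open bins of these nuclei 15.6% of genes were lower and 12.4% higher. Under settings other than the likelihood gate and open bins the share over all genes was not measured. These counts thus say nothing particular to the factors. The number of elements above 1 in both libraries (2) became 4 with bins shifted by 250 bp and 6 by the likelihood gate, and with the class bins 5 and 10 by the 2 gates.

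With promoters alone the deep over upper ratio reversed for Tbr1 in sham (0.755) and for Bcl11b in sham (0.914) and stroke (0.602), and the glutamatergic stroke over sham ratio of Tbr1 became 1.06. In thinned nuclei the upper over deep ratio of Cux1 in stroke became 0.944, the deep over upper ratios of Tbr1 in sham and Bcl11b in stroke became 0.600 and 0.986, and the stroke over sham ratios in the deep gate became 1.01 for Cux1 and 1.01 for Tbr1. The stricter gate gave 1.03 for Tbr1 in glutamatergic nuclei, and alternate markers gave 1.14 for Tle4 in the upper gate. With layer gates from genes other than the factors, the stroke over sham ratio of Foxp2 in the upper gate became 0.999 and that of Tbr1 in the deep gate 1.06. Open bins gave 0.753 for Foxp2 in interneurons. The cause of these changes was not tested.

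No paired analysis was possible because sham and stroke were single libraries. Depth limits Fezf2 and Tbr1 most, and leaving out a replicate was not possible.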
